A study of Mus musculus with 31 samples.

Results

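Inguinal white adipose tissue (iWAT), the subcutaneous fat pad of the mouse groin, was examined after 2 days of cold. The comparison sets 3 iWAT libraries from mice kept at 4 °C for 2 days (iWAT532, iWAT538 and iWAT539) against 4 from mice that were killed without cold (day 0: iWAT516, iWAT517, iWAT518 and iWAT522). These 7 libraries were taken by their label numbers from the 31 RNA-seq libraries of the series, which also cover interscapular brown fat, epididymal white fat and a later time in the cold. All mice were male C57BL/6J aged 8 weeks with no further genetic or drug treatment named, and all were first acclimated to thermoneutrality for 8 days. Each library was made from 1 µg of total RNA of dissected, frozen fat, and a library number never recurs between the times of a tissue, although most recur between depots. The labels do not say that a library is a single mouse or pad, so the tests measure only the spread between these libraries.

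At thermoneutrality the body needs no extra heat, and inguinal fat stores triglyceride in large white adipocytes. In the cold, sympathetic nerves release noradrenaline, which acts through adrenergic receptors and cyclic AMP to start lipolysis and to switch on a heat-producing programme in scattered beige adipocytes. Its central product, UCP1, lets protons re-enter the mitochondrial matrix without making ATP, so that the oxidation of fatty acids and glucose is released as heat.

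After 2 days at 4 °C, 10 of 16 tested genes of the heat-producing programme were higher in every cold library than in every day 0 library, and so were 10 of 20 genes of fatty acid oxidation. Of the 23 genes of the connective tissue matrix, 6 were lower in every cold library, and 0 were higher. Among all genes tested, 7.34% were higher in every cold library and 4.32% were lower. Ucp1 averaged 6465 ± 2704 CPM at day 2 and 229 ± 224 CPM at day 0 (mean ± SD, n = 3 and 4 libraries). CPM are read counts scaled to a common library total by trimmed means (TMM). None of this passed edgeR's quasi-likelihood test over all genes, as set out next, so differences are given as values and as whether the libraries of both days overlap.

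The 9574 genes with enough reads were tested together. At a Benjamini-Hochberg adjusted p under 0.05 edgeR called 0 genes higher (0%) and 0 lower (0%), and the smallest adjusted p was 0.247. At an unadjusted p under 0.05 it counted 404 genes higher at day 2 (4.22%) and 616 lower (6.43%). DESeq2 called 54 genes higher (0.568% of 9506) and 57 lower (0.6%), and limma voom called 0. For 89 of the 111 genes called by DESeq2 the libraries of both days did not overlap. Among all genes tested, every day 2 library lay above every day 0 library for 703 (7.34%) and below for 414 (4.32%). These shares are the background for each count of members below. A positive log2 change was seen for 4380 genes (45.7%), and the median over all genes was -0.08. Total counts were 3.46 to 3.64 M at day 2 and 1.51 to 3.42 M at day 0, and the biological coefficient of variation was 0.538. In bulk tissue, fewer cells of a type and less RNA per cell cannot be told apart.

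**Figure D1:**
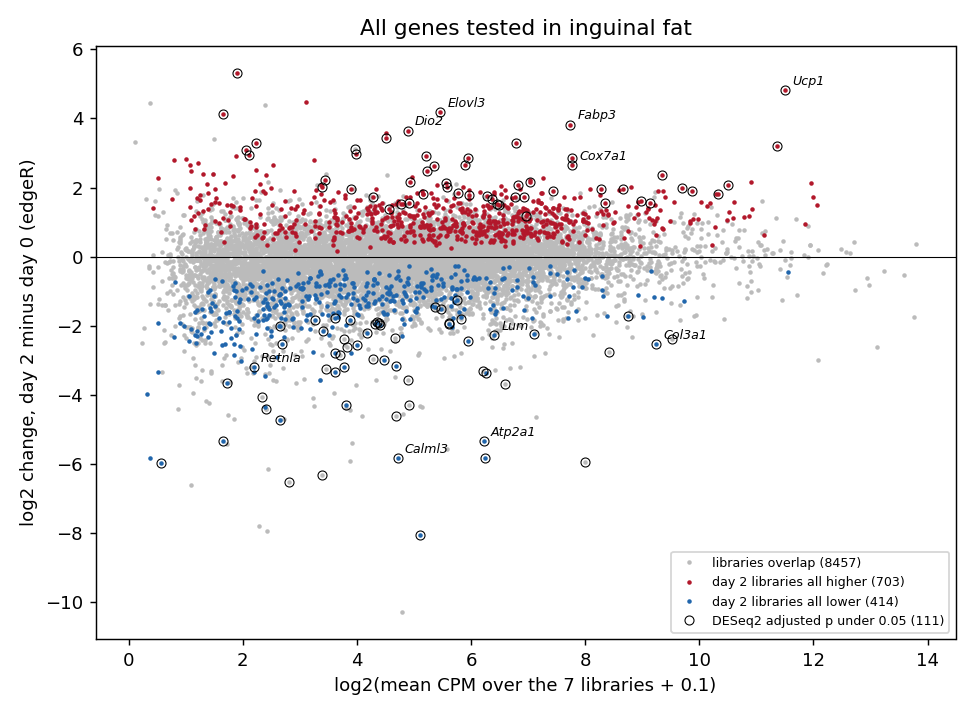
Log2 change (day 2 minus day 0, edgeR) against the log2 mean CPM over the 7 libraries with 0.1 added, for the 9574 genes tested. Red points are the 703 genes whose day 2 libraries all lie above the day 0 libraries, blue points the 414 whose day 2 libraries all lie below, grey points the rest, and circles the 111 genes with a DESeq2 adjusted p under 0.05; Ucp1 at 4.82 lies far above other abundant genes.

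The libraries also differed in ways that the days do not define. An axis was taken from the deviations of brown and epididymal fat replicates from their group means. Its high end was defined as the side on which the keratin gene Krt17 lies. A score on that axis, found in the other 2 depots, put all 3 day 2 libraries on the low side (-51.7, -7.4 and -41) with iWAT522 of day 0 (-62.2). The other day 0 libraries iWAT516, iWAT517 and iWAT518 were on the high side (27.1, 34 and 45.9). Day and side are therefore nearly confounded. Both the fit with the score as a covariate and the fit with iWAT522 alone as day 0 were run. Each is given beside a printed log2 change or list median that it moved by over 1.5 times. Genes and lists shown without a log2 change or median can have moved as far.

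Markers of some other tissues ranged more widely at day 0. The 18 skeletal muscle markers summed to 94.4, 32.1 and 59.1 CPM of the plain total at day 2, against 51.8, 3886, 449 and 1879 CPM at day 0, so that day 0 was high in 3 of 4 libraries (exact two-sided permutation p = 0.229, adjusted p = 0.637 over 13 marker lists). The 14 epidermal and gland markers summed to 247, 2169 and 267 CPM at day 2, against 13662, 7190, 7433 and 273 CPM at day 0 (exact permutation p = 0.0857, adjusted p = 0.557). Nearly all of these reads were Krt17 in every library except iWAT522, where most were not. Krt17 alone, the most sequenced tested marker of that list (by mean CPM over the 7 libraries, not corrected for length), had 256, 2135 and 233 CPM at day 2, against 13863, 6382, 7296 and 91.5 CPM at day 0, and its log2 change of -2.98 (SE 1.37) became 0.07 with the score and 3.30 against iWAT522 alone. Sperm and epididymis markers summed to 43.8, 5.79 and 10.4 CPM at day 2, against 130.5, 10.5, 126 and 985 CPM at day 0 (exact permutation p = 0.314, adjusted p = 0.637). Their most sequenced tested member Tnp2, a protein that packs sperm DNA, had 3.11, 0.573 and 1.52 CPM at day 2, against 11.3, 2.64, 15.6 and 301 CPM at day 0. What part these contents and the score have in the differences below was not tested.

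**Figure D2:**
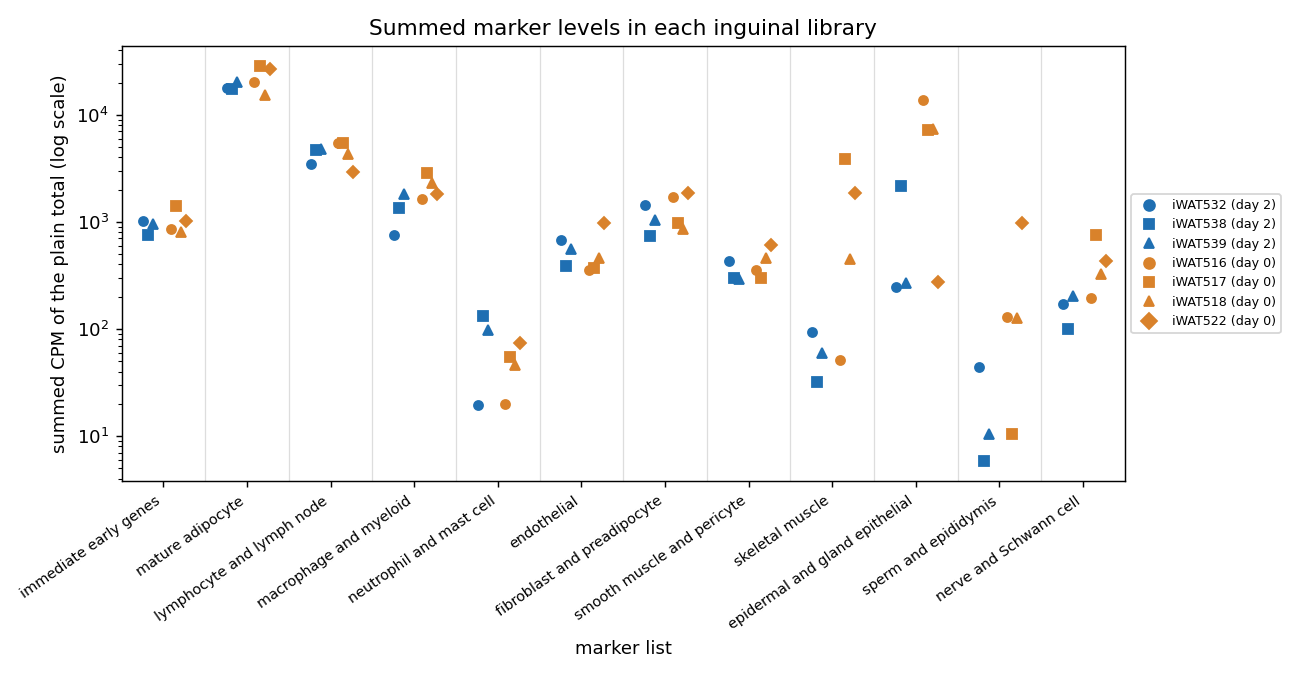
Summed CPM of the plain total (log axis) for 12 marker lists in each library, with day 2 libraries in blue to the left of day 0 libraries in orange and 1 symbol per library. Skeletal muscle runs from 32.1 to 94.4 CPM at day 2 and from 51.8 to 3886 CPM at day 0, while mature adipocyte markers overlap.

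The fat itself carried the markers of its labelled tissue in all libraries. Summed mature adipocyte markers were 17832, 17325 and 20316 CPM at day 2, against 20390, 28724, 15450 and 26645 CPM at day 0 (exact permutation p = 0.314, adjusted p = 0.637). Fabp4, the fatty acid binding protein of adipocytes and the most sequenced member, had 9111, 8662 and 11694 CPM at day 2, against 15582, 20845, 8973 and 10997 CPM at day 0. Its libraries overlapped, with a log2 change of -0.52 (SE 0.63), or -0.13 against iWAT522 alone. Adipoq, the hormone adiponectin, had 2771, 1277 and 2050 CPM at day 2, against 829.8, 1440, 759 and 5343 CPM at day 0 and also overlapped. Leptin (Lep), which reports fat stores, had 35.4, 30.1 and 46.5 CPM at day 2, against 33.6, 77.2, 9.78 and 47.9 CPM at day 0, again with overlap.

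Heat production came first among the gene lists. Of 20 thermogenic and beige adipocyte genes with a row, 16 were tested, 14 had a positive log2 change and the median was 1.63, beside -0.08 over all genes. Every day 2 library lay above every day 0 library for 10 of the 16 (62.5%, beside 7.34% of all genes), and DESeq2 called 6 of them higher. The median became 2.48 with the score as a covariate and 2.28 against iWAT522 alone.

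Ucp1 (NM_009463, GRCm38 chromosome 8, 83290348 to 83298456), the uncoupling protein, had 9117, 6563 and 3713 CPM at day 2, against 244, 539.6, 80.2 and 50.8 CPM at day 0. Its lowest day 2 library was above its highest day 0 library by a wide margin, and iWAT517 led within day 0. The log2 change was 4.82 (SE 0.94), with an edgeR adjusted p of 0.247 and a DESeq2 adjusted p of 1.66e-05; against iWAT522 alone it was 7.03. Dio2 (NM_010050, GRCm38 chromosome 12, 90724552 to 90739038), which converts thyroxine to the active thyroid hormone inside the cell, had 87.9, 71 and 29.3 CPM at day 2, against 1.49, 14.2, 1.3 and 1.97 CPM at day 0. Here too iWAT517 stood apart from the other day 0 libraries, below every day 2 library, and the log2 change was 3.65 (SE 0.88, DESeq2 adjusted p = 0.00469). Elovl3 (NM_007703, GRCm38 chromosome 19, 46131897 to 46135694), which lengthens saturated fatty acids, had 82, 153 and 52.4 CPM at day 2, against 5.35, 13.7, 0 and 0.656 CPM at day 0. In iWAT518 it had no read, where a count of 0 allows up to 1.96 CPM, and the groups did not overlap (log2 change 4.18, SE 0.98, DESeq2 adjusted p = 0.00221). Against iWAT522 alone the log2 change of Elovl3 was 7.16.

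Cidea (NM_007702, GRCm38 chromosome 18, 67343564 to 67367794), a lipid droplet protein of brown and beige adipocytes, had 189.5, 99.4 and 75.1 CPM at day 2, against 10.7, 17.4, 13.7 and 25.2 CPM at day 0. All 4 day 0 libraries lay close together below the cold ones, with a log2 change of 2.85 (SE 0.71, DESeq2 adjusted p = 0.0127). Cox7a1 (NM_009944, GRCm38 chromosome 7, 30184171 to 30186030), the cytochrome oxidase subunit of brown fat and muscle, had 521.6, 403 and 331 CPM at day 2, against 111, 73.5, 38.5 and 44.6 CPM at day 0. The groups did not overlap (log2 change 2.64, SE 0.64, DESeq2 adjusted p = 0.00894). Fabp3 (NM_010174, GRCm38 chromosome 4, 130308738 to 130315463), the heart-type fatty acid binding protein found in heat-producing adipocytes, comes from the fatty acid uptake list and had 538.7, 480.1 and 345 CPM at day 2, against 29.4, 80.1, 5.22 and 12.1 CPM at day 0. Its log2 change was 3.82 (SE 0.87, DESeq2 adjusted p = 0.00214) and 5.26 against iWAT522 alone.

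**Figure D3:**
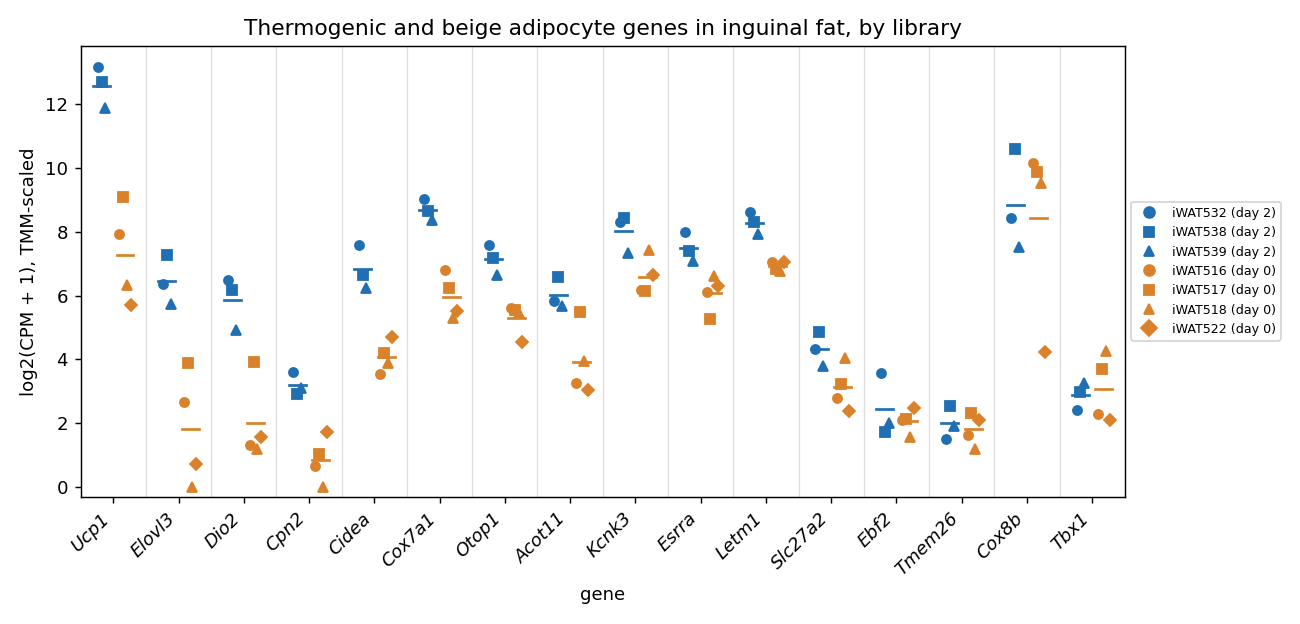
Level of the 16 tested thermogenic and beige adipocyte genes in each library, as log2 of CPM with 1 added, with day 2 libraries in blue to the left of day 0 libraries in orange and bars at the group mean of the log values. For Ucp1 the day 2 libraries run from 3713 to 9117 CPM and the day 0 libraries from 50.8 to 539.6 CPM, while Cox8b, Tbx1, Tmem26 and Ebf2 overlap.

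The 250 bases before the annotated starts of 4 genes that moved together are shown, because cyclic AMP and nuclear receptors are the textbook inputs to this programme. The sequences are RefSeq's for GRCm38.p6 and are printed along the gene's own strand. Capitals mark TGACG, the core of the cyclic AMP response element, and AGGTCA, the core that nuclear receptors bind, searched on both strands.
Ucp1: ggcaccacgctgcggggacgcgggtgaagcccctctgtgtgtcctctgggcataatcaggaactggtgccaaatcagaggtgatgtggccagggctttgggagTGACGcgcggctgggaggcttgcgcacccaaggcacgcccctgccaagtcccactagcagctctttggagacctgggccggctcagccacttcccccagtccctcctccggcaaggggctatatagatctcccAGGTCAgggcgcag
Dio2: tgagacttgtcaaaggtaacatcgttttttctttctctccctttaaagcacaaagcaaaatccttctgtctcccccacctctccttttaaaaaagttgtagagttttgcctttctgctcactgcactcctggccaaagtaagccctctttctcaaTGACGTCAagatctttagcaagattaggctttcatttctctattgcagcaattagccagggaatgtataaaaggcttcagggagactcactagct
Cox7a1: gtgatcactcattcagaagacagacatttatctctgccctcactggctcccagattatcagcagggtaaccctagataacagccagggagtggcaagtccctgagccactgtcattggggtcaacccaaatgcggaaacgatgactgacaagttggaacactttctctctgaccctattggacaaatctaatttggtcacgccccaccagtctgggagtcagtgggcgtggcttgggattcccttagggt
Fabp3: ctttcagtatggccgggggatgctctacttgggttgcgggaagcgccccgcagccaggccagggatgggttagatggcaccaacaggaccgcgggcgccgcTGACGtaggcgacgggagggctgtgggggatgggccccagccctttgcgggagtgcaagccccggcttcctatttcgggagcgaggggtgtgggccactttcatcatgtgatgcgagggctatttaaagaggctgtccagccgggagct
These windows are chr8:83290098-83290347 (plus strand) for Ucp1, chr12:90739039-90739288 (minus strand) for Dio2, chr7:30183921-30184170 (plus strand) for Cox7a1 and chr4:130308488-130308737 (plus strand) for Fabp3. Ucp1 held 1 TGACG and 1 AGGTCA, and Fabp3 held 1 TGACG. In Dio2, 2 TGACG matches on opposite strands overlap to form the palindrome TGACGTCA, and neither motif was found in the Cox7a1 window. Of all 32851 RefSeq windows of this length, 17.8% hold TGACG, 14.0% hold AGGTCA and 1.55% hold TGACGTCA. A match describes the letters only.

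The other 5 members without overlap were Cpn2, Otop1, Acot11, Esrra and Letm1. Cpn2, a subunit of the secreted carboxypeptidase N, had 11.2, 6.59 and 7.59 CPM at day 2, against 0.595, 1.05, 0 and 2.29 CPM at day 0, a log2 change of 2.95 (SE 0.80) with a DESeq2 adjusted p of 0.0319, and 1.90 against iWAT522 alone. Otop1, a proton channel, had 192, 143 and 98.1 CPM at day 2, against 47.9, 45.9, 42.4 and 22.3 CPM at day 0. Acot11, a thioesterase that frees fatty acids from coenzyme A, had 55.3, 93.7 and 50.3 CPM at day 2, against 8.62, 43.5, 14.3 and 7.21 CPM at day 0, with iWAT517 just below the lowest cold library. The log2 changes of Otop1 and Acot11 were 1.87 (SE 0.66) and 1.84 (SE 0.73), or 2.73 and 3.23 against iWAT522 alone, and neither was called by DESeq2. Esrra, a nuclear receptor that drives mitochondrial genes, had 254, 167 and 135 CPM at day 2, against 68.7, 37.4, 97.8 and 77 CPM at day 0. Letm1, an ion exchanger of the mitochondrial inner membrane, had 389, 315 and 244 CPM at day 2, against 132, 114, 107 and 131 CPM at day 0. Both lay wholly above day 0, with log2 changes of 1.40 (SE 0.53) and 1.38 (SE 0.44).

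Several genes that mark beige cells did not separate the days. Cox8b, the other brown fat subunit of cytochrome oxidase, had 342, 1527 and 184 CPM at day 2, against 1122, 937, 739.96 and 17.7 CPM at day 0. The day 0 libraries iWAT516, iWAT517 and iWAT518 were as high as the cold ones and iWAT522 was far below, and the log2 change of -0.04 (SE 1.18) turned to 2.76 with the score and 5.31 against iWAT522 alone. Tbx1, a transcription factor used as a beige marker, had 4.35, 6.88 and 8.6 CPM at day 2, against 3.86, 11.9, 18.3 and 3.28 CPM at day 0. Tmem26, a membrane protein used in the same way, had 1.86, 4.87 and 2.78 CPM at day 2, against 2.08, 3.95, 1.3 and 3.28 CPM at day 0. Ebf2, a regulator of brown and beige identity, had 10.9, 2.29 and 3.03 CPM at day 2, against 3.27, 3.43, 1.96 and 4.59 CPM at day 0. All overlapped between days. Ckb, a creatine kinase, had 179.9, 60.7 and 70.8 CPM at day 2, against 59.2, 26.9, 70.4 and 192 CPM at day 0 and overlapped as well. Bmp8b, Cited1, Cpt1b, Gk and the hormone Fgf21 had too few reads to test. Fgf21 had 3.11, 0.859 and 0.253 CPM at day 2, against 0, 0.264, 0 and 0.656 CPM at day 0. The transcript counted for Gk had 0 reads in every day 2 library, which allows up to 0.932 CPM of that transcript in iWAT532. This does not bound the level of the gene, and whether reads of its other transcripts went uncounted was not tested. Ppargc1a, Pparg and Acly were not analysed here.

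Fatty acids are the main fuel of heat production. Of 20 fatty acid oxidation genes tested, 16 had a positive log2 change (median 0.83) and 10 did not overlap (50%, beside 7.34%). With the score the median was 1.47, and against iWAT522 alone 1.48. Cpt2, which releases fatty acids from carnitine inside the mitochondrion, had 1136, 829.7 and 724 CPM at day 2, against 273, 287, 333 and 335 CPM at day 0. Its day 0 libraries were tightly grouped below, with a log2 change of 1.55 (SE 0.43) and a DESeq2 adjusted p of 0.0351. Hadh, the dehydrogenase of short-chain intermediates, had 951, 1066 and 911 CPM at day 2, against 286, 293, 525 and 415 CPM at day 0. Etfdh, which passes electrons from fatty acid oxidation to ubiquinone, had 1990, 903 and 736 CPM at day 2, against 529, 301, 458 and 339 CPM at day 0. Neither overlapped. Acsl1, the acyl-CoA synthetase of adipocytes and the most sequenced member, had 1854, 4166 and 2181 CPM at day 2, against 894, 1280, 1380 and 1285 CPM at day 0, again without overlap (log2 change 1.18, SE 0.55). Cpt1a, a carnitine palmitoyltransferase of the list, was among the members with a negative change. It had 88.5, 75.3 and 72.8 CPM at day 2, against 199.8, 154, 80.2 and 226 CPM at day 0, and overlapped through iWAT518.

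The tricarboxylic acid cycle had 14 genes tested, 10 positive (median 0.54) and 4 without overlap (28.6%). Its median was 1.4 with the score and 1.62 against iWAT522 alone. Dlst, a subunit of the 2-oxoglutarate dehydrogenase complex, had 751, 944 and 772 CPM at day 2, against 285, 159, 296 and 335 CPM at day 0. Suclg1, of succinyl-CoA ligase, had 1187, 2145 and 1499 CPM at day 2, against 508, 284, 533 and 408 CPM at day 0. Fh1, fumarase, had 53.4, 127 and 79.9 CPM at day 2, against 38.4, 32.7, 25.4 and 36.1 CPM at day 0. None of these 3 overlapped. DESeq2 called Dlst (adjusted p = 0.0196) and Suclg1 (adjusted p = 0.0303) higher but not Fh1 (adjusted p = 0.0804), and it called 3 genes of the list in all.

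Glucose is the other fuel. Glucose uptake and glycolysis had 10 of 12 genes positive (median 0.75) and 4 without overlap (33.3%). Eno1 and Pkm are among the positives at low counts. Eno1 averaged 2.91 CPM at day 2 and 0.707 CPM at day 0, and Pkm 5.03 and 2.84 CPM. These are levels of the transcript counted for each gene. Whether reads of their other transcripts went uncounted was not tested. Hk2, the hexokinase that traps glucose in the cell, had 1936, 911 and 781 CPM at day 2, against 172, 114, 137 and 517.96 CPM at day 0. Within day 0 iWAT522 stood above the other libraries, and the log2 change of 2.36 (SE 0.60) became 1.27 against it alone (DESeq2 adjusted p = 0.0166). Ldhb, the lactate dehydrogenase subunit of oxidative tissue, had 2075, 1230 and 1023 CPM at day 2, against 355, 316, 389.9 and 390.1 CPM at day 0, with a DESeq2 adjusted p of 0.0211. Gpi1, which makes fructose 6-phosphate and is the most sequenced member, had 2813, 1460 and 1305 CPM at day 2, against 475, 341, 445 and 1282 CPM at day 0. Slc16a1, the lactate and pyruvate carrier of the cell membrane, had 69.3, 123 and 61 CPM at day 2, against 18.7, 22.1, 17.6 and 19 CPM at day 0. It comes from outside the list and did not overlap, with a log2 change of 2.12 (SE 0.45, DESeq2 adjusted p = 0.00378).

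Pyruvate entry into mitochondria had 8 of 12 genes positive (median 0.92, or 0.55 without iWAT532) and 5 without overlap (41.7%). Pdhx, which anchors a component of the pyruvate dehydrogenase complex, had 179.6, 223 and 144 CPM at day 2, against 51.4, 45.9, 63.9 and 57 CPM at day 0. It had a narrow spread within each day and a log2 change of 1.74 (SE 0.37, DESeq2 adjusted p = 0.00223). Pdk4, the kinase that switches that complex off, had 1287, 652 and 419.8 CPM at day 2, against 109, 118, 209 and 339.9 CPM at day 0. The libraries did not overlap, yet DESeq2 put it just short of the threshold at 0.0508, and its log2 change of 2.02 (SE 0.58) became 1.25 against iWAT522 alone. Mpc2, of the mitochondrial pyruvate carrier, had 36.7, 17.2 and 11.6 CPM at day 2, against 6.24, 5.27, 1.3 and 10.5 CPM at day 0 and did not overlap. Mpc1, of the same carrier, was counted at a far higher level and overlapped. It had 577, 818 and 602 CPM at day 2, against 794, 1364, 1722 and 302 CPM at day 0, with the lower mean at day 2. Pdha1, the most sequenced member, had 8375, 3876 and 3476 CPM at day 2, against 2138, 2284, 3669 and 3178 CPM at day 0 and overlapped. Of 6 pentose phosphate and NADPH genes, 5 were positive (median 0.73, or 0.47 without iWAT532) and 2 did not overlap (33.3%). Pgd, which makes NADPH in that pathway, had 369, 717 and 479 CPM at day 2, against 139, 176, 171 and 231 CPM at day 0 (DESeq2 adjusted p = 0.0136). Tkt, the most sequenced, had 3157, 7600 and 2528 CPM at day 2, against 2842, 2878, 7166 and 1221 CPM at day 0, with overlap.

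The respiratory chain feeds on these fuels. Of 31 complex I genes 28 were positive (90.3%, beside 45.7% of all genes), with a median of 0.98 and 9 without overlap (29%). Of 35 genes of complexes II to V with cytochrome c, 30 were positive (85.7%), with a median of 0.78 (0.32 without iWAT532) and 13 without overlap (37.1%). In neither list was a gene lower in every cold library, and DESeq2 called 0 and 1 of them. Cycs, cytochrome c, was that gene and had 3905, 2138 and 1658 CPM at day 2, against 490.2, 632, 452 and 882 CPM at day 0, a log2 change of 2.06 (SE 0.49, DESeq2 adjusted p = 0.00605). In complex I, Ndufb2 had 242, 232 and 183 CPM at day 2, against 61.2, 42.2, 74.3 and 111 CPM at day 0. Ndufb6 had 753, 1134 and 666 CPM at day 2, against 313, 389, 314 and 272 CPM at day 0, and Ndufv2, which carries an iron-sulfur cluster, had 484, 493 and 355 CPM at day 2, against 103, 201, 215 and 229 CPM at day 0. Each of these accessory or core subunits was higher in every cold library, with log2 changes of 1.60 (SE 0.46), 1.40 (SE 0.44) and 1.25 (SE 0.44). That of Ndufb2 was 1.01 against iWAT522 alone. Uqcrc1 of complex III had 888, 599.6 and 543 CPM at day 2, against 237, 224, 357 and 170.1 CPM at day 0. Cyc1 of the same complex, cytochrome c1, had 2156, 1488 and 1432 CPM at day 2, against 599, 419, 623 and 635 CPM at day 0, and neither overlapped. Ndufb9 of complex I had 5880, 2421 and 2396 CPM at day 2, against 615, 680.1, 593 and 2777 CPM at day 0. Cox4i1 of complex IV had 10734, 5571 and 4979 CPM at day 2, against 917, 772, 373 and 4483 CPM at day 0. These are the most sequenced members of the 2 lists. In both, iWAT522 stood above the other day 0 libraries, and against it alone the log2 changes of 1.61 (SE 0.73) and 2.12 (SE 0.96) became 0.40 and 0.70. With the score that of Cox4i1 was 1.33.

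Machinery that builds mitochondria was also looked at, with 5 groups chosen by symbol after values had been seen. Of 18 Timm and Tomm genes of protein import, 13 were positive (median 0.54, or 0.83 with the score and 1.02 against iWAT522 alone) and 5 did not overlap (27.8%). Timm10, a chaperone for carrier proteins crossing the intermembrane space, had 272, 199 and 135 CPM at day 2, against 36.6, 44.8, 46.9 and 62 CPM at day 0. It was among the smallest p-values of all genes (edgeR unadjusted p = 0.000189, DESeq2 adjusted p = 0.00214). Timm17a, of the inner membrane channel, had 143, 74.8 and 82.4 CPM at day 2, against 33.3, 43.8, 33.9 and 62.6 CPM at day 0. Timm23, the pore of that channel, had 12.7, 13.5 and 6.83 CPM at day 2, against 5.05, 3.69, 3.91 and 3.93 CPM at day 0, and both were higher in every cold library. Of 31 mitochondrial carriers (Slc25a genes) 23 were positive (median 0.51), 6 lay above without overlap (19.4%) and 1 below (3.23%). Slc25a34, a carrier of unsettled substrate, had 30.1, 37.5 and 26.8 CPM at day 2, against 5.35, 6.85, 0.652 and 2.29 CPM at day 0 (DESeq2 adjusted p = 0.0127). Slc25a5, an ADP/ATP carrier and the most sequenced, had 1930, 1193 and 1224 CPM at day 2, against 641, 915, 583 and 556 CPM at day 0. Coenzyme Q synthesis had 8 of 9 positive (median 0.88, or 0.48 without iWAT532 and 0.34 against iWAT522 alone), with 2 without overlap (22.2%), and Coq9 had 704, 1103 and 740.2 CPM at day 2, against 318, 161, 440.1 and 379 CPM at day 0. Cytochrome oxidase assembly had 10 of 15 positive (median 0.29, or 0.49 without iWAT539) with 6 without overlap (40%). Its median was 0.83 with the score and 0.58 against iWAT522 alone. Complex I assembly had 6 of 8 positive (median 0.25) with 1 without overlap (12.5%), and its median was 0.98 with the score and 1.05 against iWAT522 alone.

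Ribosomal proteins were counted by compartment. Of 31 mitochondrial ribosomal proteins 25 were positive (80.6%), the median was 0.32 and 8 did not overlap (25.8%). Mrpl1 had 19.3, 16.6 and 18.7 CPM at day 2, against 3.27, 2.9, 1.3 and 9.51 CPM at day 0. Mrpl20 had 193, 179.6 and 153 CPM at day 2, against 79.1, 94.4, 55.4 and 51.5 CPM at day 0, and Mrpl12 had 258, 315 and 197 CPM at day 2, against 99.6, 71.2, 153 and 109 CPM at day 0. Mrps7, the most sequenced, had 435, 304 and 317 CPM at day 2, against 241, 192, 257 and 286 CPM at day 0, with no overlap and a log2 change of 0.53 (SE 0.37), or 0.34 against iWAT522 alone. Of 32 cytosolic ribosomal proteins 12 were positive (median -0.13, or -0.02 with the score and 0.30 against iWAT522 alone), 4 lay above without overlap (12.5%) and 0 below, and the most sequenced, Rplp1, had 5614, 10369 and 8250 CPM at day 2, against 15438, 6599, 13753 and 7472 CPM at day 0. The difference between the 2 lists was not tested. Proteasome subunits, chosen by symbol after values were seen, had 24 of 35 positive (median 0.44, or 0.25 without iWAT532 or without iWAT517 and 0.24 against iWAT522 alone) and 7 without overlap (20%).

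**Figure D4:**
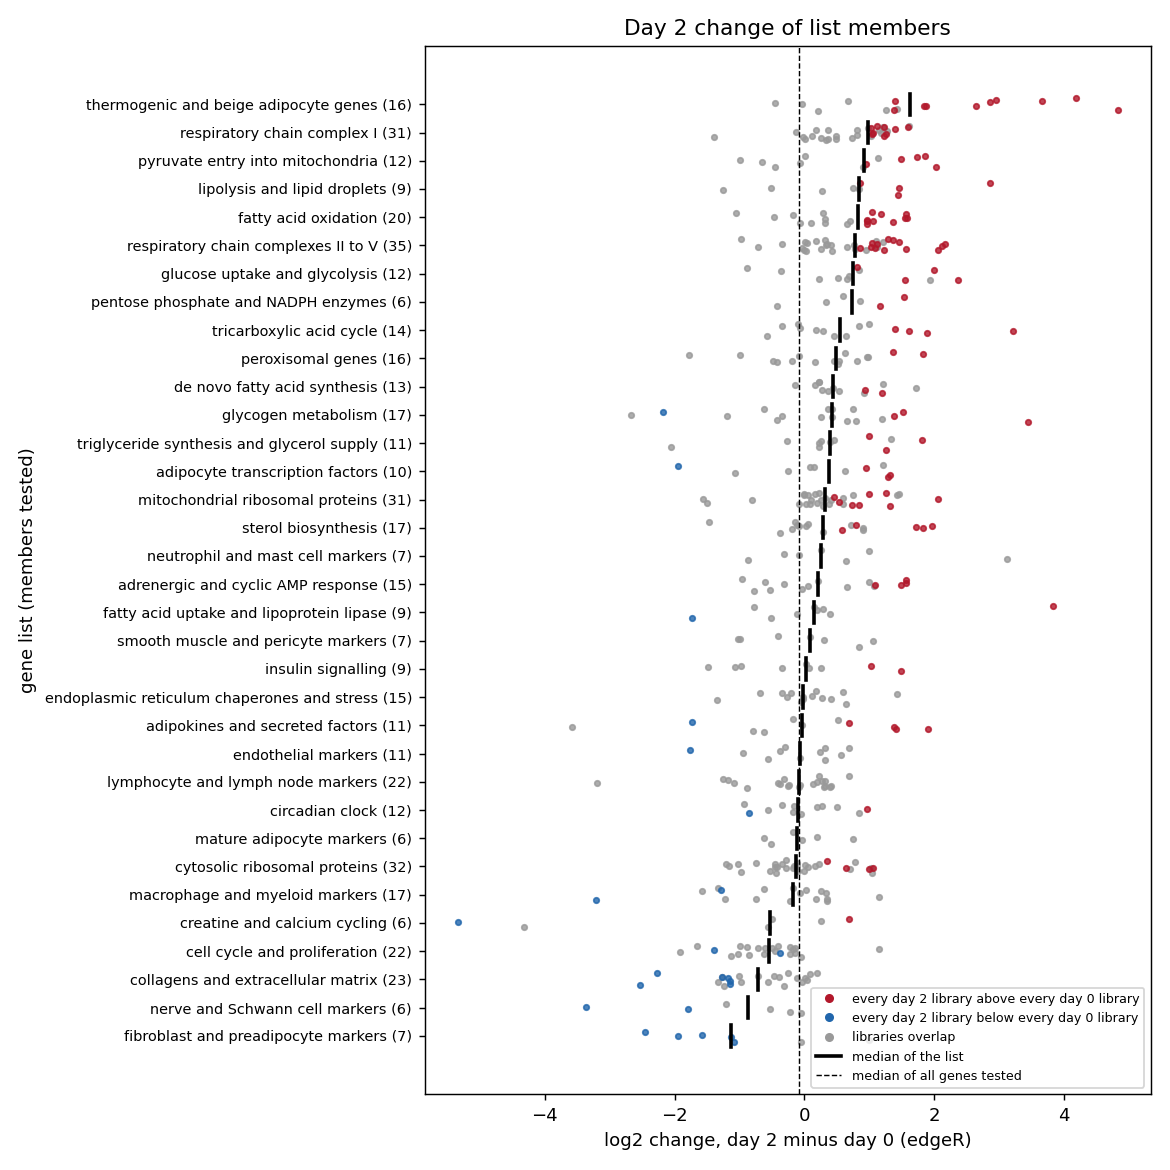
Log2 change (day 2 minus day 0, edgeR) of the tested members of each pathway or cell type list with at least 6 of them. The skeletal muscle and the sperm and epididymis lists, which reach far below the axis, are left out. So are the immediate early genes, the individually named genes and the lists chosen by symbol. The number after each name is how many were tested. Thick lines are list medians and the dashed line the median of all genes at -0.08; thermogenic genes lie highest with a median of 1.63 and fibroblast markers lowest with -1.13.

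Fat is also made, stored and released in these cells. De novo fatty acid synthesis had 12 of 13 genes positive, but the median was 0.44 (0.22 against iWAT522 alone) and 2 did not overlap (15.4%). Fasn, fatty acid synthase, had 8092, 4870 and 5848 CPM at day 2, against 2148, 6174, 7564 and 5626 CPM at day 0. Scd1, which desaturates stearate and is the most sequenced, had 21957, 14166 and 13169 CPM at day 2, against 6484, 14553, 17935 and 11935 CPM at day 0. Both overlapped. Acacb, the acetyl-CoA carboxylase at the mitochondrion, had 448, 594 and 449.9 CPM at day 2, against 102, 238, 149 and 379 CPM at day 0, and Thrsp, a lipogenic protein regulated by thyroid hormone, had 7568, 4208 and 3444 CPM at day 2, against 2490, 1696, 3309 and 3189 CPM at day 0, each without overlap. In triglyceride synthesis 9 of 11 were positive (median 0.39, or 0.02 against iWAT522 alone) and 3 did not overlap (27.3%). Gpd1, which makes glycerol 3-phosphate and shuttles electrons into mitochondria, had 2210, 2573 and 1708 CPM at day 2, against 615, 744, 437 and 671 CPM at day 0 (log2 change 1.81, SE 0.47, DESeq2 adjusted p = 0.0136). Agpat2, an acyltransferase of the pathway, had 34.2, 28.6 and 25.8 CPM at day 2, against 7.73, 10.8, 17.6 and 13.8 CPM at day 0. Gpam, the acyltransferase of its opening step, had 17.1, 23.2 and 15.7 CPM at day 2, against 8.03, 10.8, 7.17 and 11.1 CPM at day 0, and neither overlapped. Pck1, which supplies glycerol carbon from pyruvate, had 3465, 1191 and 1126 CPM at day 2, against 1739, 1580, 3212 and 2746 CPM at day 0 and overlapped.

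Lipolysis and lipid droplet genes numbered 9, with 7 positive (median 0.84) and 4 without overlap (44.4%), Cidea among them. G0s2, an inhibitor of the lipase ATGL, had 981, 502 and 754 CPM at day 2, against 197, 301, 198 and 399 CPM at day 0. Fitm2, which helps lipid droplets to form, had 32.9, 18 and 21 CPM at day 2, against 7.14, 5.54, 13.7 and 9.51 CPM at day 0. Neither was called by DESeq2. Fatty acid uptake had 5 of 9 positive (median 0.15, or -0.03 with the score and -0.13 against iWAT522 alone), with Fabp3 above and Angptl4 below without overlap (11.1% each way). Angptl4, a secreted inhibitor of lipoprotein lipase, had 216, 90.8 and 126 CPM at day 2, against 462, 251, 526 and 667 CPM at day 0. It was lower in every cold library, with a log2 change of -1.73 (SE 0.66, edgeR unadjusted p = 0.0206, DESeq2 adjusted p = 0.174). Angptl8, a relative of Angptl4 named here after its values were seen, had 139, 29.8 and 66.8 CPM at day 2, against 8.62, 11.3, 11.7 and 19.3 CPM at day 0. It went the other way with a log2 change of 2.61 (SE 0.58, DESeq2 adjusted p = 0.00552).

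Sterol synthesis had 11 of 17 positive (median 0.29, or 0.61 against iWAT522 alone) and 5 without overlap (29.4%). Hmgcs1, the synthase before the rate-limiting step, had 580.05, 624 and 417 CPM at day 2, against 142, 188, 129.7 and 96.4 CPM at day 0 (log2 change 1.96, SE 0.42, DESeq2 adjusted p = 0.00221). Sqle, squalene epoxidase, had 65.6, 48.7 and 36.9 CPM at day 2, against 14.9, 10.3, 0.652 and 34.4 CPM at day 0. Insig1, a sterol sensor and the most sequenced, had 1974, 809.6 and 870.5 CPM at day 2, against 258, 387, 1233 and 727 CPM at day 0, with overlap. Glycogen metabolism had 11 of 17 positive (median 0.42, or 0.18 without iWAT532 and 0.88 without iWAT522), 3 above without overlap (17.6%) and 1 below (5.88%). Ppp1r3b, which tethers protein phosphatase 1 to glycogen, had 41.3, 56.4 and 45 CPM at day 2, against 5.95, 6.85, 1.3 and 2.62 CPM at day 0. Its cold libraries lay many times above day 0, with a log2 change of 3.44 (SE 0.73, DESeq2 adjusted p = 0.00214). Phkg1, the muscle subunit of phosphorylase kinase, had 0.621, 0.573 and 1.26 CPM at day 2, against 1.49, 3.95, 5.87 and 4.59 CPM at day 0 and was lower throughout. Gyg, glycogenin, had 499.6, 305 and 367 CPM at day 2, against 159, 162, 293 and 372 CPM at day 0 and overlapped. Peroxisomal genes had 10 of 16 positive (median 0.48, or 0.12 without iWAT532) and 2 without overlap (12.5%). They were Ehhadh, of peroxisomal fatty acid oxidation, with 233, 329 and 204 CPM at day 2, against 40.7, 102, 86.1 and 58.7 CPM at day 0, and Abcd3, a peroxisomal transporter, with 211, 484 and 234 CPM at day 2, against 149, 107, 102 and 121 CPM at day 0. Crat, carnitine acetyltransferase, was the most sequenced and had 2384, 918 and 866 CPM at day 2, against 858, 407, 949.9 and 961 CPM at day 0, with overlap.

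The sympathetic input is read by adrenergic and cyclic AMP genes, of which 9 of 15 were positive (median 0.21, or 0.54 without iWAT532, 0.47 without iWAT522 and 0.10 with the score) and 4 did not overlap (26.7%). Adrb1, the beta 1 receptor, had 24.5, 39.8 and 40 CPM at day 2, against 12.2, 14, 11.1 and 9.83 CPM at day 0. Adrb3, the beta 3 receptor of adipocytes, had 93.2, 111 and 178 CPM at day 2, against 197, 441, 123 and 231 CPM at day 0. The beta 1 receptor was higher in every cold library, with a log2 change of 1.56 (SE 0.58), while the beta 3 receptor overlapped at -0.96 (SE 0.60). Prkaca, the catalytic subunit of protein kinase A, had 304, 307 and 274 CPM at day 2, against 63.9, 129.7, 113 and 117 CPM at day 0 (log2 change 1.48, SE 0.42, DESeq2 adjusted p = 0.0508). Prkar2b, its regulatory subunit in fat and the most sequenced member, had 984, 734 and 641 CPM at day 2, against 169.8, 242, 139 and 509.8 CPM at day 0, without overlap. Against iWAT522 alone the log2 change of Prkar2b was 0.66, beside 1.57 (SE 0.59).

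Secreted factors and transcription factors each had members above and members below day 0. Of 11 adipokines 5 were positive (median -0.04, or 0.97 without iWAT522, -0.16 with the score and -0.44 against iWAT522 alone), 4 lay above without overlap (36.4%) and 1 below (9.09%). Retn, resistin, had 51, 22.3 and 26.8 CPM at day 2, against 13.1, 6.59, 8.48 and 21.6 CPM at day 0. Apln, apelin, had 14.9, 7.74 and 11.6 CPM at day 2, against 3.86, 5.27, 5.87 and 2.62 CPM at day 0. Fndc5, the precursor of irisin, had 15.8, 14.3 and 8.09 CPM at day 2, against 1.19, 2.64, 1.96 and 7.54 CPM at day 0. Each was higher in every cold library, while Angptl4 was the member below. Of 10 adipocyte transcription factors 7 were positive (median 0.38, or 0.88 without iWAT522 and -0.04 against iWAT522 alone), 3 lay above without overlap (30%) and 1 below (10%). Ppargc1b, a coactivator of mitochondrial genes, had 26.1, 39 and 26.8 CPM at day 2, against 9.51, 14, 14.3 and 12.5 CPM at day 0. Zfp423, a factor of preadipocytes and white identity, had 12.1, 14 and 5.82 CPM at day 2, against 48.2, 26.4, 73 and 18.4 CPM at day 0. Ppargc1b was above and Zfp423 below, with log2 changes of 1.29 (SE 0.41) and -1.95 (SE 0.76). The value of Zfp423 became -0.88 with the score and -0.74 against iWAT522 alone. Cebpa, the most sequenced, had 4827, 1247 and 1582 CPM at day 2, against 1651, 1451, 2426 and 4077 CPM at day 0, with overlap.

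Among genes with a symbol, the smallest edgeR p-values with no overlap and a mean of at least 5 CPM on either day were taken after values were seen, 12 in each direction. Ucp1, Timm10, Slc16a1, Pdhx, Ppp1r3b and Hmgcs1, described above, are 6 of the 12 on the higher side. Qrsl1, which helps to charge glutamine transfer RNA in mitochondria, had 55, 69.6 and 56.4 CPM at day 2, against 14.3, 18.5, 18.9 and 17.4 CPM at day 0. It had the smallest p of all (edgeR unadjusted p = 6.52e-05) and a log2 change of 1.81 (SE 0.33), with a DESeq2 adjusted p of 0.000185. Cish, an inhibitor of cytokine receptor signalling, had 18.3, 83.9 and 117 CPM at day 2, against 15.5, 6.06, 3.26 and 13.4 CPM at day 0. Clstn3, calsyntenin 3, a membrane protein, had 693, 353 and 242 CPM at day 2, against 49.1, 24.3, 80.8 and 84.6 CPM at day 0. Their log2 changes were 2.91 (SE 0.59) and 2.85 (SE 0.60), with iWAT532 the lowest cold library for Cish and the highest for Clstn3. Ciapin1, of iron-sulfur cluster assembly in the cytosol, had 307, 344 and 239 CPM at day 2, against 86.5, 56.7, 84.8 and 92.8 CPM at day 0. Lactb2, a mitochondrial ribonuclease, had 63.1, 50.4 and 50.1 CPM at day 2, against 8.32, 11.3, 7.17 and 21.6 CPM at day 0. Tmed5, which helps to carry proteins between the endoplasmic reticulum and Golgi, had 757, 829 and 514 CPM at day 2, against 152, 162, 132 and 276 CPM at day 0. All 12 were called higher by DESeq2, at adjusted p-values from 1.66e-05 to 0.00378.

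Genes of the connective tissue matrix lay on the lower side. Of 23 collagen and extracellular matrix genes tested 19 had a negative log2 change (median -0.72, or -1.09 against iWAT522 alone), 0 lay above and 6 lay below without overlap (26.1%, beside 4.32% of all genes). Col3a1 (NM_009930, GRCm38 chromosome 1, 45311538 to 45349706), the type III collagen chain, had 238, 124 and 125 CPM at day 2, against 742, 1197, 1344 and 471 CPM at day 0. Every cold library was below, with a log2 change of -2.53 (SE 0.61, DESeq2 adjusted p = 0.00377), which became -1.50 against iWAT522 alone. Lum (NM_008524, GRCm38 chromosome 10, 97565501 to 97572703), lumican, which spaces collagen fibrils, had 15.2, 39.5 and 24.8 CPM at day 2, against 111, 94.9, 183 and 126 CPM at day 0, a log2 change of -2.27 (SE 0.52, DESeq2 adjusted p = 0.00243). Col1a2, of type I collagen, had 46.9, 85.7 and 82.2 CPM at day 2, against 126, 112, 155 and 237 CPM at day 0. Fbn1, fibrillin 1 of microfibrils, had 16.8, 12.3 and 16.4 CPM at day 2, against 30, 22.4, 45 and 49.5 CPM at day 0. Timp2, an inhibitor of metalloproteinases, had 87, 151 and 133 CPM at day 2, against 269, 225, 342 and 259 CPM at day 0. These 3 had log2 changes of -1.14 (SE 0.40), -1.27 (SE 0.40) and -1.15 (SE 0.37), and DESeq2 called none of them. Col1a1, also of type I collagen, did not follow Col1a2. It had 189, 243 and 324 CPM at day 2, against 78.5, 115, 80.8 and 726 CPM at day 0. Its libraries overlapped, with means of 252 CPM at day 2 and 250 CPM at day 0. Sparc, the most sequenced of the list, had 4719, 1807 and 2732 CPM at day 2, against 2412, 1459, 4657 and 4127 CPM at day 0 and overlapped.

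Fibroblasts and preadipocytes make much of this matrix. Of 7 markers tested 6 were negative (median -1.13) and 5 lay below without overlap (71.4%). Pi16, of the stem-like cells around vessels, had 17.1, 13.2 and 21.8 CPM at day 2, against 49.6, 30.8, 109 and 191 CPM at day 0 (log2 change -2.45, SE 0.71, DESeq2 adjusted p = 0.0303). Mfap5, a microfibril protein of the same cells, had 8.08, 6.88 and 7.59 CPM at day 2, against 25, 17.1, 33.9 and 40 CPM at day 0 (log2 change -1.94, SE 0.47, DESeq2 adjusted p = 0.0131). Ly6a, the surface antigen Sca-1, had 115, 99.7 and 109 CPM at day 2, against 560.1, 296, 189 and 236 CPM at day 0. The cold libraries of all 3 were close together and below day 0. Thy1, a surface protein of stromal cells, had 181, 161 and 224 CPM at day 2, against 823, 298, 267 and 263 CPM at day 0, and Fap, a protease of activated fibroblasts, had 4.66, 2.58 and 4.05 CPM at day 2, against 8.62, 6.85, 6.52 and 10.2 CPM at day 0. Dpt, dermatopontin, was the most sequenced and the exception, with 1155, 378 and 521 CPM at day 2, against 169, 160.3, 156 and 879 CPM at day 0 and a log2 change of 1.00 (SE 0.65), which was 0.53 with the score and -0.32 against iWAT522 alone. The sum of all 8 markers with a row was 1436, 734 and 1042 CPM of the plain total at day 2, against 1692, 969, 858 and 1843 CPM at day 0, and overlapped (exact permutation p = 0.457, adjusted p = 0.66). Cd248, endosialin of fibroblasts and pericytes, had 3.11, 2.58 and 2.53 CPM at day 2, against 18.1, 6.59, 22.2 and 30.2 CPM at day 0. Gpc3, a glypican of the cell surface, had 1.86, 2.58 and 1.26 CPM at day 2, against 22, 8.96, 39.8 and 8.85 CPM at day 0. Mmp23, a metalloproteinase, had 5.59, 3.72 and 5.82 CPM at day 2, against 16.6, 20.8, 21.5 and 11.1 CPM at day 0. These 3 were among the 12 smallest p-values on the lower side with Col3a1, Lum and Mfap5.

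**Figure D5:**
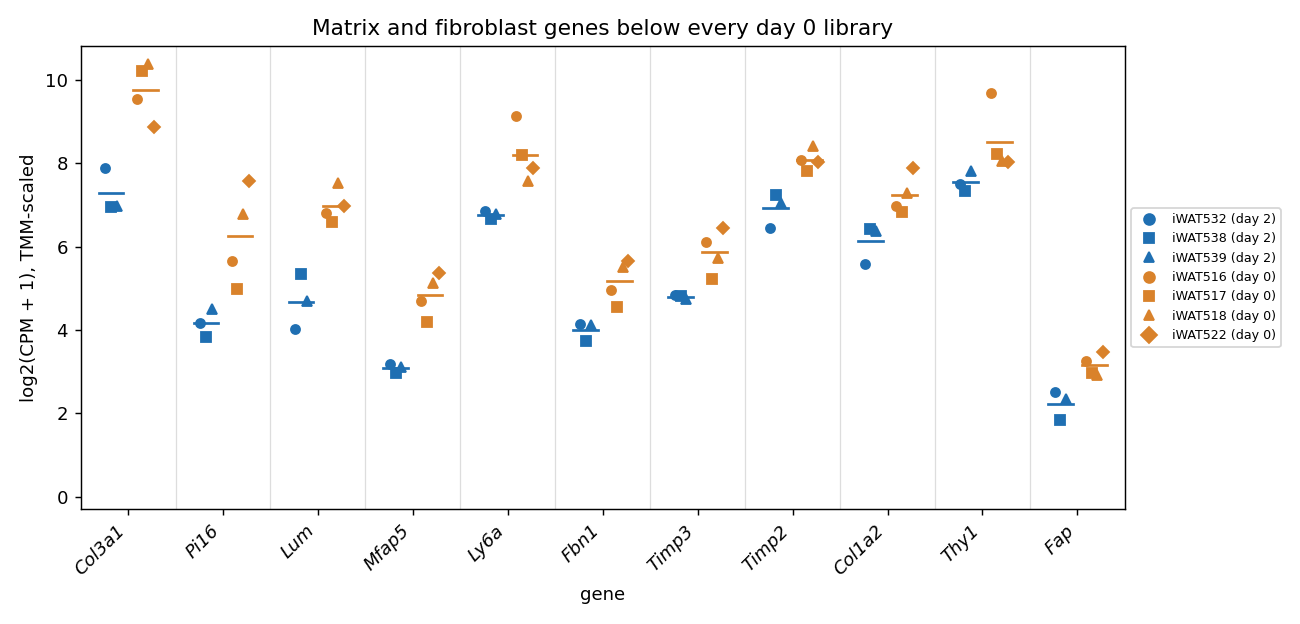
Level of the 11 matrix and fibroblast genes whose day 2 libraries all lie below the day 0 libraries, as log2 of CPM with 1 added, with day 2 libraries in blue to the left of day 0 libraries in orange and bars at the group mean of the log values. Col3a1 runs from 123.8 to 238 CPM at day 2 and from 471 to 1344 CPM at day 0.

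Immune and vascular markers mostly overlapped. The inguinal pad holds a lymph node. Summed lymphocyte markers were 3436, 4694 and 4833 CPM of the plain total at day 2, against 5420, 5431, 4311 and 2914 CPM at day 0 (exact permutation p = 0.771, adjusted p = 0.835). Of 22 tested 10 were positive (median -0.08, or 0.09 with the score and 0.71 against iWAT522 alone) with 0 outside the overlap, and Cd79a of B cells, the most sequenced, had 1655, 1589 and 1496 CPM at day 2, against 1530, 845, 1546 and 826 CPM at day 0. Summed macrophage markers averaged 1312 ± 539.4 CPM at day 2 and 2156 ± 531.8 CPM at day 0 (SD, n = 3 and 4; exact permutation p = 0.143, adjusted p = 0.62). Of 17 tested 7 were positive and 2 lay below without overlap (11.8%). Retnla, a product of alternatively activated macrophages, had 0.932, 0.286 and 1.01 CPM at day 2, against 6.24, 4.48, 7.82 and 10.5 CPM at day 0 (log2 change -3.21, SE 0.63, DESeq2 adjusted p = 0.0054). Lyz1, a lysozyme with a near-identical neighbouring copy that makes its level uncertain, had 456, 290.5 and 657 CPM at day 2, against 909, 1841, 1023 and 806 CPM at day 0. Cd209f, a lectin outside the list, had 3.73, 0.573 and 2.78 CPM at day 2, against 13.4, 8.96, 31.9 and 33.4 CPM at day 0 and was lower in every cold library. S100a8 of neutrophils had 2.8, 59.6 and 31.9 CPM at day 2, against 1.78, 7.12, 3.26 and 1.97 CPM at day 0. For S100a8 iWAT538 and iWAT539 stood above day 0 while iWAT532 lay within it, so the groups overlapped although DESeq2 called it higher (adjusted p = 0.0136).

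Endothelial markers summed to 670, 391 and 557 CPM of the plain total at day 2, against 354, 368, 459 and 983 CPM at day 0 (exact permutation p = 1, adjusted p = 1). Cdh5, the most sequenced of them, had 437, 173 and 205 CPM at day 2, against 93.1, 65.1, 49.5 and 521 CPM at day 0 and overlapped, whereas Vwf, von Willebrand factor, was lower in every cold library with 2.8, 5.16 and 7.84 CPM at day 2, against 26.8, 12.4, 18.3 and 14.8 CPM at day 0. Smooth muscle and pericyte markers had 4 of 7 positive (median 0.08, or 0.15 with the score and -0.28 against iWAT522 alone) and 0 outside the overlap, and Acta2 had 68.7, 49.8 and 43.2 CPM at day 2, against 131, 30.8, 84.8 and 186 CPM at day 0. All 6 nerve and Schwann cell markers tested were negative (median -0.87), and their sum was 169, 99.5 and 203 CPM of the plain total at day 2, against 196, 760, 323 and 431 CPM at day 0 (exact permutation p = 0.0857, adjusted p = 0.557). Of the 6, 2 were lower in every cold library (33.3%) and DESeq2 called 1 lower. Pmp22, a membrane protein of myelin and the most sequenced marker, had 132, 33.2 and 94.6 CPM at day 2, against 60.1, 328, 177 and 235 CPM at day 0 and overlapped.

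Skeletal muscle transcripts made up part of the lower side. All 14 muscle markers tested were negative (median -4.63), 3 lay below without overlap (21.4%) and DESeq2 called 7 lower. Atp2a1, the calcium pump of fast muscle, had 3.73, 2.86 and 2.78 CPM at day 2, against 4.16, 345, 24.1 and 139 CPM at day 0. Acta1, the most sequenced, had 13.4, 2.29 and 5.82 CPM at day 2, against 3.57, 1334, 61.9 and 359.9 CPM at day 0. Trim72, a membrane repair protein of muscle, had 0, 0.573 and 0.506 CPM at day 2, against 2.38, 21.1, 6.52 and 12.5 CPM at day 0. In each, iWAT517 and iWAT522 were highest and iWAT516 was the lowest day 0 library, within the cold range for Acta1. Calml3, a calmodulin-like protein of epithelia, had 0.932, 0.859 and 0.506 CPM at day 2, against 1.49, 21.9, 15.6 and 142 CPM at day 0, with iWAT522 highest and iWAT516 close to the cold libraries. Zfp704, a zinc finger gene, had 8.39, 5.73 and 9.86 CPM at day 2, against 32.1, 19.2, 39.8 and 27.5 CPM at day 0, and Mt2, a metallothionein named after its values were seen, had 207, 167 and 187 CPM at day 2, against 437, 390.4, 662 and 978 CPM at day 0. Both were lower in every cold library (DESeq2 adjusted p = 0.00575 and 0.0206). With iWAT517 and iWAT522, the 2 day 0 libraries highest in muscle markers, left out, edgeR still called 0 genes, with 1487 at an unadjusted p under 0.05.

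The other lists hold general cell functions. Cell cycle genes had 1 of 22 positive and a median of -0.55, which was -0.20 with the score and turned to 0.42 against iWAT522 alone, and 2 lay below without overlap (9.09%). Pcna, the replication clamp and their most sequenced member, had 54.1, 116 and 64 CPM at day 2, against 251, 187, 213 and 35.1 CPM at day 0. Within day 0 iWAT522 lay far below the other libraries, and the log2 change of -1.13 (SE 0.63) became 0.12 with the score and 1.19 against iWAT522 alone. Endoplasmic reticulum chaperones had 7 of 15 positive (median -0.02, or 0.03 with the score and -0.01 against iWAT522 alone) with 0 outside the overlap. Hsp90b1, their most sequenced member, had 186, 800.2 and 167 CPM at day 2, against 1555, 883, 1383 and 102 CPM at day 0. Immediate early genes, which respond to handling, had 6 of 16 positive (median -0.26, or 0.09 against iWAT522 alone) and 2 above without overlap (12.5%), and Egr1, the most sequenced, had 469, 84.2 and 124 CPM at day 2, against 304, 250.4, 211 and 169 CPM at day 0. Circadian clock genes had 5 of 12 positive (median -0.10, or -0.38 against iWAT522 alone), with 1 above and 1 below (8.33% each), and Bhlhe40, the one above, had 284, 219 and 198 CPM at day 2, against 55, 157, 174 and 96.7 CPM at day 0. Insulin signalling had 5 of 9 positive (median 0.03, or 0.16 against iWAT522 alone) with 2 above (22.2%). Creatine and calcium cycling had 2 of 6 positive (median -0.53, or -1.13 against iWAT522 alone), with Atp2a1 the member below (16.7%). Alpl, a phosphatase that acts on phosphocreatine, was the member above (16.7%), with 7.77, 14 and 6.58 CPM at day 2, against 6.24, 5.54, 5.22 and 6.56 CPM at day 0. It was nearly a tie, with 6.58 CPM in iWAT539 beside 6.56 CPM in iWAT522. Neutrophil and mast cell markers had 4 of 7 positive (median 0.26, or 0.11 with the score and -0.56 against iWAT522 alone) and 0 outside the overlap, and sperm and epididymis markers 0 of 7 (median -4.34) with 0 outside the overlap. Of 2 erythroid markers 0 were positive (median -0.42, or -1.07 with the score and -1.22 against iWAT522 alone), and Hba-a1, a globin with a near-identical copy, had 2.8, 1.15 and 3.79 CPM at day 2, against 5.95, 2.37, 2.61 and 6.56 CPM at day 0.

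The 5 libraries of day 4 share the day 0 libraries as their starting point, so their values are given only beside the others. In the order day 0, day 2 and day 4, Ucp1 averaged 228.8, 6465 and 3538 CPM, Dio2 4.75, 62.8 and 23.7, Elovl3 4.93, 95.7 and 61.7 and Fabp3 31.7, 455 and 214. Within day 4, Ucp1 ranged from 559 to 6362 CPM over libraries. Cox7a1 averaged 66.9, 418 and 507, and Col3a1 averaged 938, 162 and 537. In these averages day 4 lay between the other days for all but Cox7a1, whose mean at day 4 was above that at day 2.

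Whether the day 2 change differed between inguinal fat and the other depots was tested as an interaction. Most library numbers recur between depots, the labels do not say that a number marks a mouse, and the libraries were fitted as independent. The change in iWAT minus the change in epididymal fat passed for 0 of 10793 genes in edgeR (0%), with 561 at an unadjusted p under 0.05, and other tools were not run on this difference. Against brown fat it passed for 0 of 9884 (0%), with 1124 unadjusted. For Ucp1 the log2 change in iWAT exceeded that in epididymal fat by 5.71 (SE 1.64, adjusted p = 0.718) and that in brown fat by 3.17 (SE 1.08, adjusted p = 0.395). The own changes were 4.82 in iWAT, -0.88 (SE 1.26) in epididymal fat and 1.61 (SE 0.56) in brown fat. In epididymal fat at day 2 edgeR called 0 of 10043 genes on its own, and in brown fat 11 higher and 2 lower of 8270. In brown fat, iBAT539 of day 2 had 8698 transcripts with reads, 159 of them with a count of 1. For iBAT548 of day 4, in the same fit, these were 7535 and 57. The other brown fat libraries had 10473 to 11875 and 1014 to 1224. What part this has in the brown fat values was not tested. Brown fat levels of Ucp1 are not shown, so these log2 changes do not compare levels between depots.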

How the data were processed

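RNA-seq counts were deposited by the authors as 1 table per depot, with raw counts per RefSeq transcript and empty cells that were read as 0. Reads had passed through cutadapt and BWA on mm10, per the submitters' processing notes; versions, the counting step and its use of strand are not given in the sources used here. Of the 16418 transcripts of the iWAT table, 16142 took a symbol from RefSeq GRCm38.p6 and 96 from GENCODE, 180 had none, and 775 shared a symbol with another. Libraries were grouped by their labels.

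All 12 iWAT libraries entered 1 edgeR 4.0.16 quasi-likelihood fit (TMM scaling, filterByExpr with a minimum count of 10 and a minimum total of 15, robust) with a mean per day, and Benjamini-Hochberg adjusted p-values over all 9574 genes. The SE is the log2 change divided by the root of the F statistic. DESeq2 1.42.0, limma voom 3.58.1 (R 4.3.3) and the other alternatives are compared in the closing section. Summed markers are CPM of the plain total, compared by an exact two-sided permutation test, whose smallest p with 3 against 4 libraries is 0.0286. Intervals from counts of 0 cover counting error only.

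The members and the 39 lists were chosen with earlier results of these data known. Genes were named from a fixed set, from those past the threshold, and from each list the most sequenced member. Because no gene passed, up to 4 members without overlap and with the smallest p per list, and the 12 genes a side with the smallest p, were added after values were seen, as were 8 lists by symbol. The lists have 686 members with a row, counting a transcript once. Some genes are not reported here.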

Additional observations from a re-analysis of the deposited data

Results flagged for a closer look

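Within day 0, 14 of the 143 group values examined had 1 library standing apart. Its gap to its nearest neighbour was, as a share of the group's whole range, above Dixon's critical value for 4 samples. Chance gives about 1 in 20 for independent groups of normally distributed values. The values here are untransformed CPM from the same 4 libraries, so that rate does not carry over and the 14 are not separate events. In 11 of the 14 the library standing apart was iWAT522, the one day 0 library on the low side of the library score, and it was the highest. There Adipoq had 5343 CPM, Ndufb9 2777 CPM, Cox4i1 4483 CPM, Gpi1 1282 CPM and Hk2 517.96 CPM. Cdh5 had 520.91 CPM, Dpt 878.89 CPM, Tnp2 300.94 CPM and Calml3 141.62 CPM in the same library. Its summed endothelial markers were 982.73 CPM and its summed sperm and epididymis markers 984.85 CPM of the plain total. Dio2 stood out in iWAT517 with 14.2 CPM, and Cyc1 was lowest there with 419.42 CPM. Thy1 stood out in iWAT516 with 823.21 CPM.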

How the results depend on the processing

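No paired analysis was possible within iWAT because its day 0 and day 2 libraries share no number. Over 17 alternatives, the 16 other than DESeq2 called 0 genes in each direction, with 584 to 1900 genes at an unadjusted p under 0.05 and a smallest adjusted p of 0.062 with the library score. DESeq2 called 54 higher, 57 lower and 33 genes of the lists. The differences between depots were 0 calls with RLE size factors and with the score too. With the library number as a replicate block, an alternative chosen after seeing the data, they were again 0 calls, with 1558 genes at an unadjusted p under 0.05 against epididymal fat and 634 against brown fat. For Ucp1 the blocked log2 difference was 5.98 against epididymal fat (SE 1.34, edgeR adjusted p = 0.283) and 3.66 against brown fat (SE 1.42, edgeR adjusted p = 0.647). Deviations of same-numbered libraries from their group means correlated across genes above 0.1 in 3 of 9 and 2 of 8 pairs, so the data do not show that the numbers pair the libraries. Of 129 named genes with values, 19 changed sign under some alternative, and of 48 list medians 22 were positive and 8 negative under all, while 18 took both signs. The cause of these reversals was not tested. With the score the log2 change was 2.76 for Cox8b, 0.63 for Tbx1, -0.15 for Tmem26, -0.36 for Cebpa, 0.01 for Sparc, 0.40 for Hsp90b1, 0.12 for Pcna, -0.07 for Cdh5 and 0.07 for Krt17. Against iWAT522 alone, whose spread is assumed to be like that of the other groups, it was 5.31 for Cox8b, 1.03 for Tbx1, -0.01 for Tmem26, -0.84 for Ckb, -0.63 for Cebpa, 1.96 for Hsp90b1, 1.19 for Pcna, 0.47 for Egr1, 0.14 for Rplp1, -0.90 for Cdh5, -0.32 for Dpt and 3.30 for Krt17. Under limma voom it was 0.41 for Cox8b, 0.08 for Lep, 0.40 for Adipoq and -0.06 for Cebpa, and with library size alone -0.04 for Cebpa. Without iWAT517 and iWAT522, the day 0 libraries highest in muscle markers, an alternative chosen after seeing the data, it was 0.76 for Lep, 1.36 for Adipoq and -0.18 for Tkt. Leaving out 1 library at a time gave -1.39 to 0.38 for Cox8b, -0.50 to 0.26 for Lep, -0.35 to 1.01 for Adipoq, -0.05 to 0.43 for Fasn, -0.74 to 0.05 for Tbx1, -0.18 to 0.47 for Tmem26 and -0.43 to 1.00 for Ckb. It gave -1.03 to 0.02 for Pck1, -0.30 to 0.93 for Tkt, -0.79 to 0.47 for Cebpa, -0.51 to 0.25 for Sparc, -1.18 to 0.38 for Egr1 and -0.34 to 1.08 for Ebf2. The log2 ratio of summed markers ranged from -0.26 to 0.03 for immediate early genes, -0.23 to 0.08 for lymphocytes, -0.19 to 0.45 for endothelium (0.09 on TMM-scaled sizes) and -0.69 to 0.06 for erythroid cells. The depth of iWAT518, at 1.51 M counts, sets the largest error on low genes, such as the 0 reads of Elovl3.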

Other observations

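Collagens were also counted as a whole family by symbol, a list made after values were seen. Of 21 collagen genes tested, 18 had a negative log2 change (median -0.66, or -1.22 against iWAT522 alone), 3 lay below day 0 in every cold library (14.3%) and 1 lay above (4.76%). Of 3 keratin genes tested, 1 was positive, 1 lay above without overlap (33.3%), and the median of -0.79 became 0.07 with the score and 1.25 against iWAT522 alone. Krt79, a keratin of skin glands, was the one above, with 5.59, 6.02 and 4.55 CPM at day 2, against 1.19, 1.85, 2.61 and 2.29 CPM at day 0. The epithelial adhesion genes Epcam and Cdh1 were lower in every cold library. Epcam had 4.66, 4.30 and 3.79 CPM at day 2, against 5.65, 5.27, 6.52 and 52.1 CPM at day 0. Apart from iWAT522, its levels on the 2 days were low and lay close together. Cdh1 had 2.49, 1.15 and 2.28 CPM at day 2, against 4.16, 16.1, 4.56 and 14.8 CPM at day 0. Over the whole list of 4 tested epidermal and gland markers 1 was positive and the median was -2.18, or -1.20 with the score and -0.80 against iWAT522 alone. Of the 4, 2 lay below without overlap (50%, beside 4.32% of all genes) and 1 above (25%, beside 7.34%).

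Of 6 mature adipocyte markers 2 were positive, with a median log2 change of -0.11 (-0.30 with the score, -0.52 against iWAT522 alone) and 0 outside the overlap. Among the 14 tested genes named individually for browning and adipose function, 9 were positive (median 0.24, or 1.19 with the score and 1.14 against iWAT522 alone), 6 did not overlap (42.9%) and DESeq2 called 5 higher. In complex I assembly, Ndufaf1 was the member without overlap, with 225.6, 137.8 and 137.8 CPM at day 2, against 33.6, 27.2, 22.2 and 92.1 CPM at day 0. Of the immediate early genes, 2 stood above day 0 in every cold library. Junb had 59.3, 65.9 and 71.3 CPM at day 2, against 39.2, 53.5, 26.7 and 27.9 CPM at day 0. Ier2 had 58.4, 47.3 and 64.0 CPM at day 2, against 19.3, 27.4, 5.22 and 45.2 CPM at day 0. In insulin signalling the members above were the growth kinases Mtor and Rps6kb1. Mtor had 10.6, 8.02 and 8.35 CPM at day 2, against 2.08, 6.06, 1.96 and 2.29 CPM at day 0. Rps6kb1 had 161.6, 144.1 and 144.4 CPM at day 2, against 59.5, 66.7, 52.8 and 115.1 CPM at day 0.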
